A study of Mus musculus with 2 samples.

Results

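Cathepsins and legumain are the proteases of the lysosome and its neighbouring vesicles. The 10 genes Ctsa, Ctsb, Ctsc, Ctsd, Ctse, Ctsh, Ctsl, Ctss, Ctsz and Lgmn were followed here by their symbols, of 26124 genes in the files, and all 10 were found in the kept cells of both libraries. The study compared spleen cells of a sickle cell disease (SCD) mouse of the Berkeley model with those of a control mouse, called wild-type, in 2 droplet single-cell RNA-seq libraries of 1 mouse each. Cells that bound beads coated with antibody against F4/80, a surface protein of macrophages, were collected after lysis of red blood cells, and transcripts were counted as unique molecular identifiers (UMIs) at their 3′ ends. Both mice were homozygous for Hbatm1Paz, which removes mouse α-globin, and both carried the human transgene Tg(HBA-HBBs)41Paz with sickle β-globin. The SCD mouse was homozygous for Hbbtm1Tow, which removes mouse β-globin, and homozygous for the transgene. The control mouse was heterozygous for Hbbtm1Tow and hemizygous for the transgene, which the labels call non-sickling, so that it was not a mouse without the transgene. The mice were untreated, aged 12 to 16 weeks, and of mixed genetic background.

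Most cathepsins are made as inactive precursors, tagged with mannose 6-phosphate, carried to the lysosome and activated there by acid and by other proteases. The papain-like cysteine cathepsins (Ctsb, Ctsc, Ctsh, Ctsl, Ctss and Ctsz), the aspartic cathepsins (Ctsd and Ctse), the serine carboxypeptidase cathepsin A (Ctsa) and the asparaginyl endopeptidase legumain (Lgmn) cut different bonds, and together they degrade what a phagocyte takes up. Red pulp macrophages of the spleen ingest aged and damaged red blood cells and digest their proteins in this compartment, while DCs and B cells use some of the same enzymes to trim the invariant chain and to cut antigens for MHC class II.

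The 300-base windows from 250 bases before to 50 bases after a RefSeq transcription start were searched on both strands, and are shown here because Tfeb, Tfe3 and Mitf, which switch on lysosomal genes, bind E-boxes, and PU.1, the factor of myeloid cells, binds GGAA cores. RefSeq windows on build GRCm38.p6 were at hand for 7 of the 10 genes (not Ctsb, Ctse and Ctsh), with 2 windows each for Ctsa and Lgmn. The E-box CACGTG was in 4 of these 9 windows (Ctsa, Ctsd, Ctsl and Lgmn) and in 7.15% of all 32851 windows. Its longer form TCACGTGA, which contains it, was in 2 of the 9 (Ctsa and Ctsd) and in 0.974% of all windows. The PU.1-type sequence GAGGAAGT was in 2 (Ctsc and Ctss) and in 3.20% of all windows. The windows of Ctsd (chr7:142387778-142388077, minus strand) and of the downstream start of Ctsa (chr2:164833523-164833822, plus strand) are printed with each E-box in capitals, extended to TCACGTGA where the longer form is present. Those of Ctsc (chr7:88277835-88278134, plus strand) and Ctss (chr3:95526536-95526835, plus strand) carry GAGGAAGT on the other strand, so that the capitals read ACTTCCTC.
Ctsd: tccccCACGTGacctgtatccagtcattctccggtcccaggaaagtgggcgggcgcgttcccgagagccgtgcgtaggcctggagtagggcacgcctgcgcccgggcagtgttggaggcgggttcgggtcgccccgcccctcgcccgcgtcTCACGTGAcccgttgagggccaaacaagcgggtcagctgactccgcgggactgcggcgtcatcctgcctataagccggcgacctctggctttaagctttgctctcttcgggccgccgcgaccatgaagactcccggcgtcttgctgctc
Ctsa: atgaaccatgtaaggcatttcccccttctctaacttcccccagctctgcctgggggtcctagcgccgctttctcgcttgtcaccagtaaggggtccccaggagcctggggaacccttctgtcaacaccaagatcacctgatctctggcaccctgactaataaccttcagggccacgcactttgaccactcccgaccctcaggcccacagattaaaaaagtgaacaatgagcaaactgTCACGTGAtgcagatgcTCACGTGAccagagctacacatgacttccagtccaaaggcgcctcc
Ctsc: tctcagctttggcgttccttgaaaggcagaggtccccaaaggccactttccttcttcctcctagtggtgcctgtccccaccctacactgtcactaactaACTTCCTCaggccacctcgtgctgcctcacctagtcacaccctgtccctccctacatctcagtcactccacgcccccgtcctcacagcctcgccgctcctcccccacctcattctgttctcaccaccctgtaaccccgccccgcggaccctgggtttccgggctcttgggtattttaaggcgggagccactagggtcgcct
Ctss: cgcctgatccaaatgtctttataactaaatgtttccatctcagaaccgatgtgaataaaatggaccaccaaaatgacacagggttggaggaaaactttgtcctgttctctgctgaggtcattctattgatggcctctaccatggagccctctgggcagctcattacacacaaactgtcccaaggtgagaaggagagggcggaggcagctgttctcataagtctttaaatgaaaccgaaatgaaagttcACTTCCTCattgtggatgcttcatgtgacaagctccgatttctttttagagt
The Ctsd window thus held 1 copy of the longer form and 1 further E-box, and the Ctsa window 2 copies of the longer form. These are matches of letters, and no binding was measured.

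The libraries held 145953464 UMIs (labelled wild-type) and 73986356 UMIs (labelled SCD), and 19418 and 12279 cells with medians of 4116 and 4571 UMIs were kept. Levels are given as CPM, the UMIs of a gene summed over the cells of a class and scaled to a class total of 1000000. The β-globin genes went against the labels. Hbb-bs stood at 129.9 CPM in erythroid-like cells labelled wild-type and at 59739 CPM in those of the SCD-labelled library, whose stated genotype removes mouse β-globin. Hba-a1, a mouse α-globin gene, was at 24416 and 30123 CPM although both stated genotypes remove mouse α-globin. The libraries are therefore named by their labels throughout, and the direction of each difference between them depends on those labels. Whether the labels were exchanged was not tested, and every direction given here would turn if they were. They shared 107 barcode sequences, 65 of them kept in both. With 1 mouse in each group no difference could be tested, intervals cover counting error only, and a difference of 2-fold is the size that is called here.

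Clusters of cells were named from marker genes, and the members took no part in the clustering. The 5 classes compared were macrophage-like (7337 cells labelled wild-type and 2356 labelled SCD), monocyte-like (2050 and 1817), DC-like (2640 and 4699), B cell-like (1125 and 2361) and erythroid-like cells (5260 and 452). The markers counted next are those that named the clusters, so their counts partly restate the naming and are no independent check. Of the 9 macrophage markers, 8 stood 2-fold or more above every other class in the wild-type-labelled library and 9 in the SCD-labelled library. The same held for 6 and 6 of 6 Ly6c-high monocyte, 12 and 10 of 13 DC, 9 and 9 of 9 B cell and 10 and 10 of 11 erythroid markers, but for only 4 and 3 of 7 Ly6c-low monocyte markers, so that this class was marked less sharply. The macrophage-like cells differed in makeup: cluster 2, led by Prg2, Marco and Lpl, held 4642 cells labelled wild-type and 118 labelled SCD, and cluster 18, led by Rgs1, Adamdec1 and Iigp1, held 65 and 1560. Clusters 3 (1190 and 661 cells) and 4 (1440 and 17 cells) also carried erythroid transcripts. Cells marked as doublets made up 59.0% of Ly6c-high cluster 7, 43.7% of B cell-like cluster 1 and 86.3% of B cell-like cluster 21, so the main B cell-like cluster 0 (1.75%) serves as the reference. They also made up 40.8% of erythroid-like cluster 6, against 4.51% of erythroid-like cluster 8. The median macrophage marker stood at 3.45, 3.91 and 3.81 times that reference in erythroid-like clusters 6, 13 and 15. In cluster 8 it stood at 1.14 times, so levels of the whole erythroid-like class include clusters rich in macrophage transcripts. Cluster 3 had an erythroid marker, Alas2, and no macrophage marker among its 10 leading genes, so values are also given for clusters 2 and 18 alone or by cluster number.

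RNA set free from broken cells can enter every droplet, and doublets can add the RNA of another cell. The level of macrophage RNA outside macrophages was read from 4 macrophage markers, the complement genes C1qa, C1qb and C1qc and the adhesion gene Vcam1. None of the 4 was at 0 in any class. In the main B cell-like cluster (556 and 1730 cells) their sum stood at 15.9% of its macrophage-like level in the wild-type-labelled library and at 9.66% in the SCD-labelled library. It stood at 34.7% and 17.1% in monocyte-like cells, 33.8% and 15.4% in DC-like cells, and 42.7% and 23.7% in erythroid-like cells. A protease gene near these percentages outside macrophages was thus no higher there, relative to macrophages, than the 4 markers, called free-RNA markers below. The marker sum was not even within the monocytes. It was 41.8% and 27.9% in Ly6c-low and 33.5% and 7.30% in Ly6c-high monocyte-like cells of the libraries labelled wild-type and SCD. Whether monocyte-like, DC-like or other cells made some of these markers themselves was not tested. Over the 100 levels of 10 genes in 5 classes and 2 libraries, the 95% Poisson interval reached a median of 2.69% to either side of the value, and 17.8% for the widest, Ctse in macrophage-like cells of the library labelled SCD.

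The members fell into 3 kinds. Among the 5 classes, Ctsa, Ctsb, Ctsc, Ctsd, Ctsl and Lgmn were highest in macrophage-like cells of both libraries. Ctsh and Ctss were highest in DC-like and monocyte-like cells, and Ctse was highest in erythroid-like cells, while Ctsz was highest in macrophage-like cells of 1 library and in DC-like cells of the other. For Ctsa the macrophage-like and monocyte-like levels of the SCD-labelled library had overlapping intervals, so 5 of the 6 were highest beyond counting error in both. Of all 12890 genes compared, 16.6% were highest in macrophage-like cells in both libraries, against these 6 of 10. The same 6 were also at least 2-fold above the main B cell-like cluster in both libraries, as were 16.9% of 11204 genes.

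**Figure D1:**
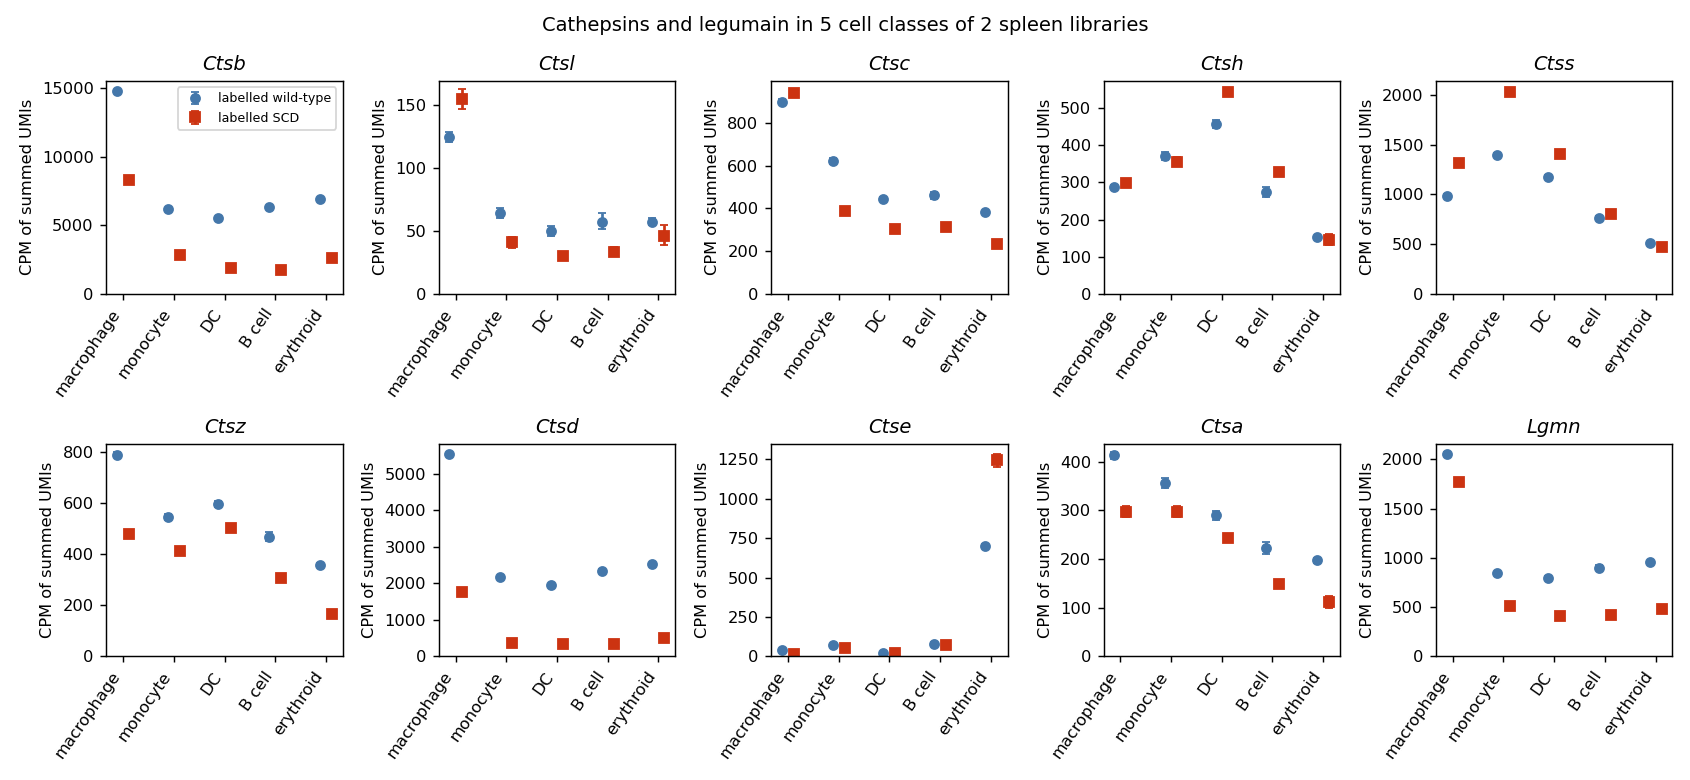
Each panel shows 1 gene as CPM of summed UMIs (linear axis from 0) in 5 cell classes, with circles for the wild-type-labelled library, squares for the SCD-labelled library and bars for 95% Poisson intervals. Ctsb, Ctsd and Lgmn stand highest at the macrophage-like cells of both libraries, Ctsh at the DC-like cells, Ctss at the monocyte-like cells and Ctse at the erythroid-like cells.

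Gene positions are on build GRCm38, and all 10 are annotated as protein-coding. Among the cysteine proteases, Ctsb (chr14:63122462-63145923, plus strand), a general lysosomal protease, was at 14807 CPM in macrophage-like cells labelled wild-type and at 8316 CPM in those labelled SCD. It was 5.93-fold (95% interval 5.74 to 6.12) and 9.23-fold (95% interval 8.98 to 9.49) above the main B cell-like cluster. Outside macrophages its level ran from 5540.0 to 6893 CPM in the wild-type-labelled library and from 1702 to 2834 CPM in the other. These levels were close to the free-RNA markers in the main B cell-like cluster, where Ctsb stood at 16.9% and 10.8% of its macrophage level, 1.06 and 1.12 times the percentage of the markers. Both kinds of monocyte-like cells were further above the markers in the SCD-labelled library. Ly6c-low cells had 8764 and 4117 CPM, 1.42 and 1.77 times their percentage, and Ly6c-high cells stood at 1.15 and 2.74 times. The log2 ratio of the SCD-labelled library to that labelled wild-type was -0.83 (95% interval -0.84 to -0.82) in macrophage-like cells, 1.78-fold lower in the former and short of 2-fold. By macrophage-like cluster the Ctsb ratio was -1.41 in cluster 2, -0.93 in cluster 3 and -0.50 in cluster 18. Ctsb was lower in all 17 clusters with at least 50 cells of each library, past 2-fold in 12 of them.

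Ctsl (chr13:64359337-64370890, minus strand), an endopeptidase that can also cut the invariant chain, was sparse and followed the macrophages. Its levels were 125 and 155 CPM in macrophage-like cells of the libraries labelled wild-type and SCD, and 49.7 to 64.2 and 29.7 to 45.9 CPM in the 4 other classes. Among those 4, the intervals of neighbours in the order overlapped throughout in the SCD-labelled library, and for erythroid-like with B cell-like and B cell-like with DC-like cells in the other. Ctsl was 4.34-fold (95% interval 3.22 to 6.01) and 8.56-fold (95% interval 7.03 to 10.5) above the main B cell-like cluster, and its log2 ratio between the libraries in macrophage-like cells was 0.31 (95% interval 0.22 to 0.39). The related Ctsl-like genes of mouse chromosome 13 were at 0 or 1 UMI in all kept cells, so a split of reads with them could not be seen.

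Ctsc (chr7:88278085-88310888, plus strand), the dipeptidyl peptidase that activates granule proteases, was at 901 and 942 CPM in macrophage-like cells. Monocyte-like cells came next with 622 and 386 CPM, and erythroid-like cells were lowest with 382 and 234 CPM. In erythroid-like cells this was 0.994 and 1.05 times the percentage of the free-RNA markers, and in Ly6c-high monocyte-like cells 2.12 and 6.36 times. Ctsc was thus above those markers in Ly6c-high monocytes and level with them in erythroid cells. Its log2 ratio in macrophage-like cells was 0.063 (95% interval 0.030 to 0.10), below the 0.16 that was the median of all 10709 genes with at least 100 UMIs there. Single macrophage-like clusters differed from this value. The Ctsc ratio was -0.49 (95% interval -0.75 to -0.24) in cluster 2 and -0.19 (95% interval -0.27 to -0.11) in cluster 3. In cluster 18 it was 0.24 (95% interval -0.02 to 0.52), with an interval that includes 0.

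Ctss (chr3:95526786-95556403, plus strand), the protease best known for the last step of invariant chain removal, was highest in monocyte-like cells, at 1401 and 2032 CPM. DC-like cells followed with 1180.2 and 1411 CPM, then macrophage-like cells with 989 and 1313 CPM. The order of the 5 classes was the same in both libraries, with no overlap of intervals between neighbours. Both kinds of monocyte carried it, Ly6c-high cells at 1391 and 2177 CPM and Ly6c-low cells at 1460.0 and 1873 CPM. Within the DC-like cells, cluster 10, led by Cd209a, was at 1786 and 1980.0 CPM and the cycling cluster 16 at 665 and 692 CPM. Between the libraries the log2 ratio was 0.41 (95% interval 0.38 to 0.44) in macrophage-like cells and 0.65 (95% interval 0.61 to 0.68) in Ly6c-high monocyte-like cells. In the main B cell-like cluster Ctss was at 602 and 558 CPM, 3.82 and 4.40 times the percentage of the free-RNA markers.

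Ctsh (chr9:90054152-90076089, plus strand), a lysosomal aminopeptidase, was highest in DC-like cells, at 457 and 544 CPM. Cluster 17, the DC-like cells led by Ccr7 and Fscn1 that mark mature DCs, carried the most, with 591 CPM in 440 cells labelled wild-type and 917 CPM in 651 cells labelled SCD. Its log2 ratio between the libraries within that cluster was 0.63 (95% interval 0.53 to 0.74). In the main B cell-like cluster Ctsh was at 233 and 294 CPM, 5.09 and 10.2 times the percentage of the free-RNA markers, whereas T or NK cell-like cells (50 and 65 cells) had 33.9 and 64.8 CPM. Ctsh therefore did not stand at a like low level in all cells. In macrophage-like cells it was at 288 and 299 CPM, which on the log2 scale is a ratio of 0.055 (95% interval -0.0042 to 0.11), whose interval includes 0.

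Ctsz (chr2:174427493-174439039, minus strand), the carboxypeptidase also called cathepsin X, was spread over the phagocytes. It was at 789.8 CPM in macrophage-like and 596 CPM in DC-like cells of the wild-type-labelled library, and at 479 and 504 CPM in that labelled SCD. The macrophage level was the higher of the pair in the first library and the lower in the second. In macrophage-like cells the log2 ratio was -0.72 (95% interval -0.77 to -0.68), against -0.24 in DC-like cells. Erythroid-like cells were lowest, with 358 and 166 CPM, 1.06 and 1.47 times the percentage of the free-RNA markers.

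Of the aspartic proteases, Ctsd (chr7:142375911-142388038, minus strand), the main aspartic protease of the lysosome, gave the clearest difference between the libraries. It was at 5541 CPM in macrophage-like cells labelled wild-type and at 1774 CPM in those labelled SCD, 3.12-fold lower in the latter, with a log2 ratio of -1.64 (95% interval -1.67 to -1.62). In clusters 2 and 18 alone, without the macrophages carrying erythroid transcripts, the ratio was -1.62. It was lower in the SCD-labelled library by more than 2-fold in all 17 clusters that held at least 50 cells of each library, from -3.25 in cluster 11, the main Ly6c-high monocyte-like cells, to -1.16 in cluster 18. Outside macrophages Ctsd and the free-RNA markers were lower together. In the main B cell-like cluster Ctsd was at 882 and 194 CPM, which was 15.9% and 11.0% of its macrophage level, 0.998 and 1.13 times the percentage of the markers. Over the 4 other classes Ctsd stayed between 1.05 and 1.24 times the markers. How much of the Ctsd in those classes was their own was not tested.

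The share of cells with Ctsd was read after each cell was thinned to 1000 UMIs, which left out 807 and 174 macrophage-like cells of lower depth. At least 1 Ctsd UMI was in 98.3% (95% interval 98.0 to 98.6) of macrophage-like cells labelled wild-type and in 74.8% (95% interval 72.9 to 76.6) of those labelled SCD, against 95.6% and 91.0% for C1qa. In the main B cell-like cluster the shares were 46.4% and 15.8% for Ctsd and 40.7% and 23.9% for C1qa. The median depths were 2594 and 3656 UMIs in macrophage-like cells and 2227 and 2895 in the main B cell-like cluster. Most macrophage-like cells of either library thus had Ctsd, with a lower share in those labelled SCD. Without thinning the shares were 98.9% against 88.8%. For Ctsb the thinned share was 99.8% and 97.9% in macrophage-like cells, and 75.5% and 43.4% in the main B cell-like cluster, so that the share alone says little of which cells made it.

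Ctse (chr1:131638306-131675505, plus strand), an aspartic protease that sits outside the lysosome and is known from red blood cell membranes, belonged to the erythroid cells. It was at 704 and 1245 CPM in erythroid-like cells of the libraries labelled wild-type and SCD, and no more than 81.2 CPM in any other of the 5 classes. Cluster 8, led by Hemgn and Klf1 and with few macrophage transcripts, had 1194 CPM in 1429 cells and 1837 CPM in 147 cells. Ctse was higher in the SCD-labelled library, with a log2 ratio of 0.82 (95% interval 0.77 to 0.87) in erythroid-like cells and of 0.62 (95% interval 0.56 to 0.69) in cluster 8, while in macrophage-like cells it was lower, with a ratio of -1.64 (95% interval -1.91 to -1.37). In clusters 2 and 18 the ratios were -1.76 (95% interval -7.07 to 0.73) and -2.13 (95% interval -3.79 to 0.21), with intervals that include 0, while both clusters taken as 1 set gave -1.76 (95% interval -2.29 to -1.28) and cluster 3 gave -1.05 (95% interval -1.43 to -0.70). Beside the macrophage difference, the sum of 4 erythroid markers (Alas2, Slc4a1, Rhag and Ermap) in macrophage-like cells was 1325 and 794 CPM, and their part in the Ctse value was not tested.

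After thinning, 42.1% (95% interval 40.8 to 43.5) and 57.0% (95% interval 52.3 to 61.7) of erythroid-like cells had a Ctse UMI, with 145 and 5 shallower cells left out. Without thinning the erythroid shares were 73.9% and 85.4%, at median depths of 5097 and 5034 UMIs. The main B cell-like cluster had thinned shares of 7.82% and 7.24%, and DC-like cells had 1.85% and 1.66%. Cells outside the erythroid class therefore differed among themselves. The main B cell-like cluster was at 77.6 and 90.3 CPM of Ctse, 11.0% and 7.25% of the erythroid level, where the 4 erythroid markers stood at 3.88% and 0.426% of theirs, none of them at 0. Ctse in this B cell-like cluster was above what those markers gave.

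Ctsa (chr2:164832873-164841032, plus strand), which trims peptides and shields β-galactosidase and neuraminidase in the lysosome, was highest in macrophages by a small margin. It was at 414 and 298 CPM in macrophage-like and 356 and 297 CPM in monocyte-like cells. In the SCD-labelled library these levels had overlapping intervals, so that macrophages and monocytes were not ordered there. Ly6c-low monocyte-like cells alone had 398 and 314 CPM, the latter above the macrophage level of that library with overlapping intervals. The log2 ratio of Ctsa in macrophage-like cells was -0.48 (95% interval -0.53 to -0.42). Lgmn (chr12:102394084-102439813, minus strand), which cleaves after asparagine and activates other cathepsins, was at 2060.4 and 1772 CPM in macrophage-like cells, 4.06-fold (95% interval 3.78 to 4.37) and 6.14-fold (95% interval 5.84 to 6.46) above the main B cell-like cluster. Its log2 ratio there was -0.22 (95% interval -0.24 to -0.19), while in DC-like cells it was -0.96 and in Ly6c-high monocyte-like cells -1.24. The last classes held Lgmn at 1.15 and 1.51, and at 1.16 and 2.61 times the percentage of the free-RNA markers.

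**Figure D2:**
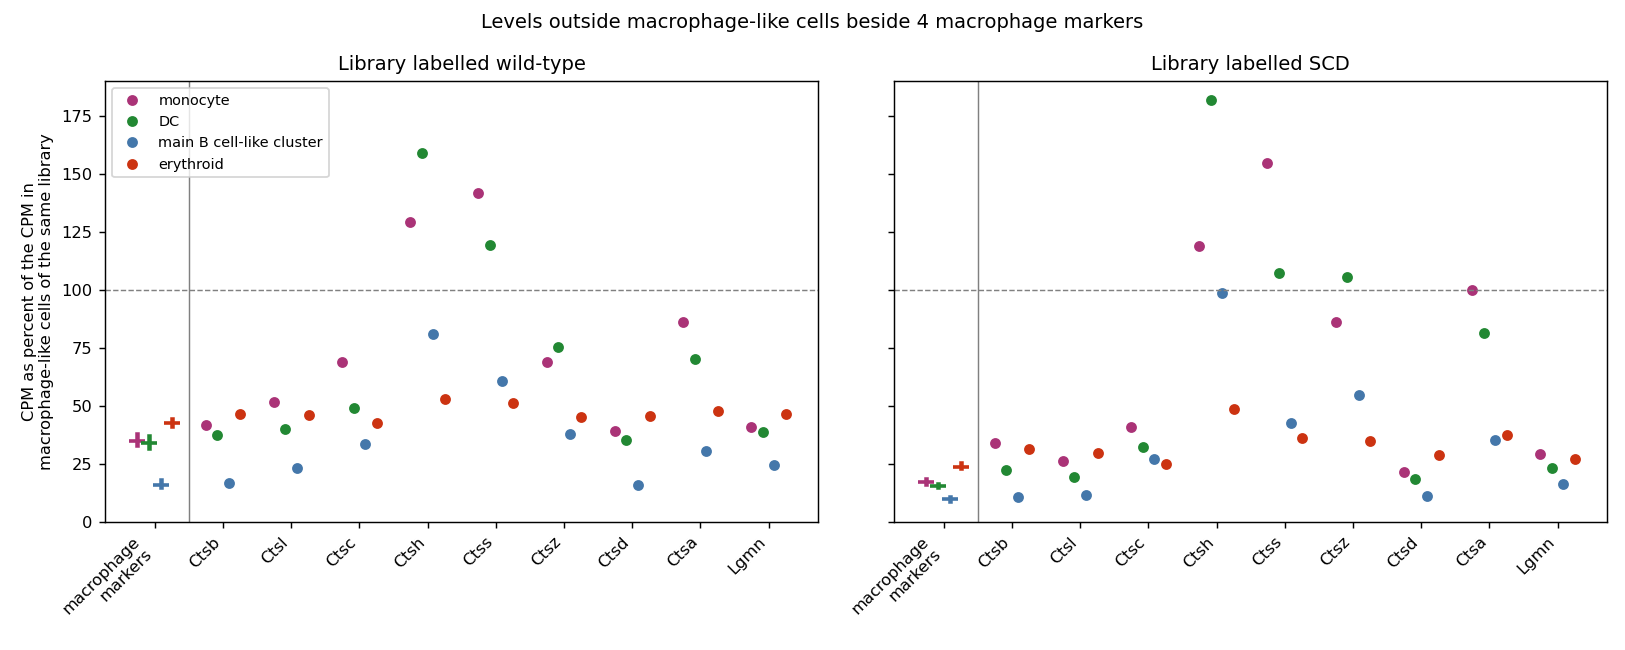
For each library, points give the CPM of 9 genes (without Ctse) in monocyte-like, DC-like and erythroid-like cells and the main B cell-like cluster as a percentage of the CPM in macrophage-like cells (dashed line, 100). At the left, bars span the lowest to the highest of 4 macrophage markers in the same cells and ticks mark their sum. Ctsd lies near those bars, Ctsb, Ctsl and Lgmn lie near or somewhat above them (Ctsb at 34.1% in monocyte-like cells labelled SCD, where the marker sum is at 17.1%), and Ctsh and Ctss lie above the dashed line in monocyte-like and DC-like cells.

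The members differed in direction between the libraries in macrophage-like cells. The median log2 ratio of the members was -0.35, beside 0.16 for all 10709 genes, with 6 members lower and 4 higher. Only Ctsd and Ctse, 2 of 10, were past 2-fold, both lower in the SCD-labelled library. Of all genes, 14.5% were past 2-fold, 5.97% lower and 8.56% higher. Relative to the median of all genes, the log2 differences were -1.80 for Ctsd, -0.99 for Ctsb, -0.88 for Ctsz and -0.64 for Ctsa, and 0.15 and 0.25 for Ctsl and Ctss, the members above that median. Without cells marked as doublets, Ctsd alone was past 2-fold, and Ctse was at a log2 ratio of -0.99. In clusters 2 and 18 alone the median was -0.37, with 2 of 10 past 2-fold.

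The sum of C1qa, C1qb, C1qc and Vcam1 in these cells was 14772 and 13758 CPM, so this sum differed less between the libraries than Ctsd did. Vcam1 alone gave 7960 and 7581 CPM of it. The sum left out other macrophage markers, among them Cd5l, a leading gene of cluster 2. By cluster, however, C1qa differed too. In cluster 2, C1qa was at 4030.4 and 1949.6 CPM and Ctsd at 5847 and 1222 CPM, which on the log2 scale is a ratio of -2.26 (95% interval -2.45 to -2.07). Cluster 3 had C1qa at 3498 and 2683 CPM and a Ctsd ratio of -1.78 (95% interval -1.83 to -1.74). In cluster 18, where C1qa was nearly level at 3585 and 3466 CPM, the Ctsd ratio was -1.16 (95% interval -1.28 to -1.03) and the Ctsb ratio -0.50 (95% interval -0.57 to -0.43). The Ctsb ratio was -1.41 (95% interval -1.49 to -1.32) in cluster 2 and -0.93 (95% interval -0.95 to -0.90) in cluster 3. Ctsd was thus past 2-fold lower in each of these 3 clusters, and the part of cell composition in its value was not tested.

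**Figure D3:**
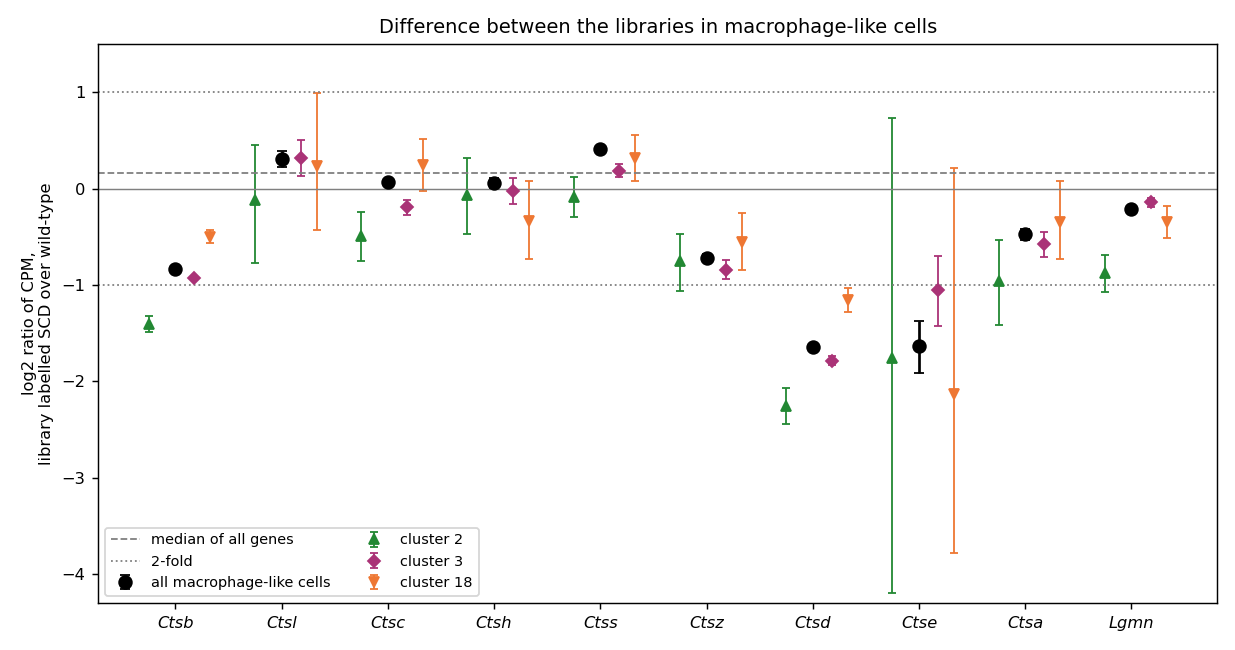
Points give the log2 ratio of CPM, library labelled SCD over library labelled wild-type, for all macrophage-like cells and for clusters 2, 3 and 18, with 95% intervals of counting error (the lower end for Ctse in cluster 2 is cut off at the axis). The dashed line is the median of all genes in macrophage-like cells and dotted lines mark 2-fold, and Ctsd lies below the lower dotted line in every set of cells shown.

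In the other 4 classes and both kinds of monocyte, every member past 2-fold was lower in the SCD-labelled library. These were Ctsb and Ctsd in monocyte-like cells (2 of 10, beside 10.7% of all genes) and in DC-like cells (2 of 10, beside 5.52%). In B cell-like cells Lgmn joined them (3 of 10, beside 7.6%), and in erythroid-like cells Ctsz did (3 of 10, beside 8.6%). Within single B cell-like clusters Lgmn was short of 2-fold, at -0.82 in cluster 0, -0.28 in cluster 1 and -0.995 in cluster 21. Ctsz was past 2-fold in erythroid-like cluster 13 (-1.10) but not in clusters 6 (-0.97) and 8 (-0.90). In Ly6c-low monocyte-like cells the members past 2-fold were again Ctsb and Ctsd (2 of 10, beside 5.03%), and in Ly6c-high cells Ctsl and Lgmn as well (4 of 10, beside 13.4%). The same cells held less of the 4 macrophage markers in the SCD-labelled library. In Ly6c-high monocyte-like cells their sum was 4956 and 1004 CPM, and in DC-like cells 4987 and 2119 CPM. In the SCD-labelled library, Ctsb in Ly6c-high monocyte-like cells stood at 2.74 times, Ctsc at 6.36 times and Ctss at 22.7 times the percentage of the markers. The part of free RNA in these differences was not tested.

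Across clusters the members' levels varied in groups. Over 39 points, each a cluster of at least 50 cells in 1 library, the Pearson correlation of log2(CPM + 10) was 0.945 between Ctsb and Ctsd, 0.944 between Ctsb and Lgmn and 0.944 between Ctsl and Lgmn. Of the 45 pairs, 8 were above 0.8, 10 were below 0 and the median was 0.596. Ctse was below 0 with each other member, but near 0 with Ctsd (-0.026) and Ctsb (-0.078), and lowest with Ctsz (-0.666). The points share libraries, free RNA and depth, so the correlations describe these 39 points and carry no test.

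**Figure D4:**
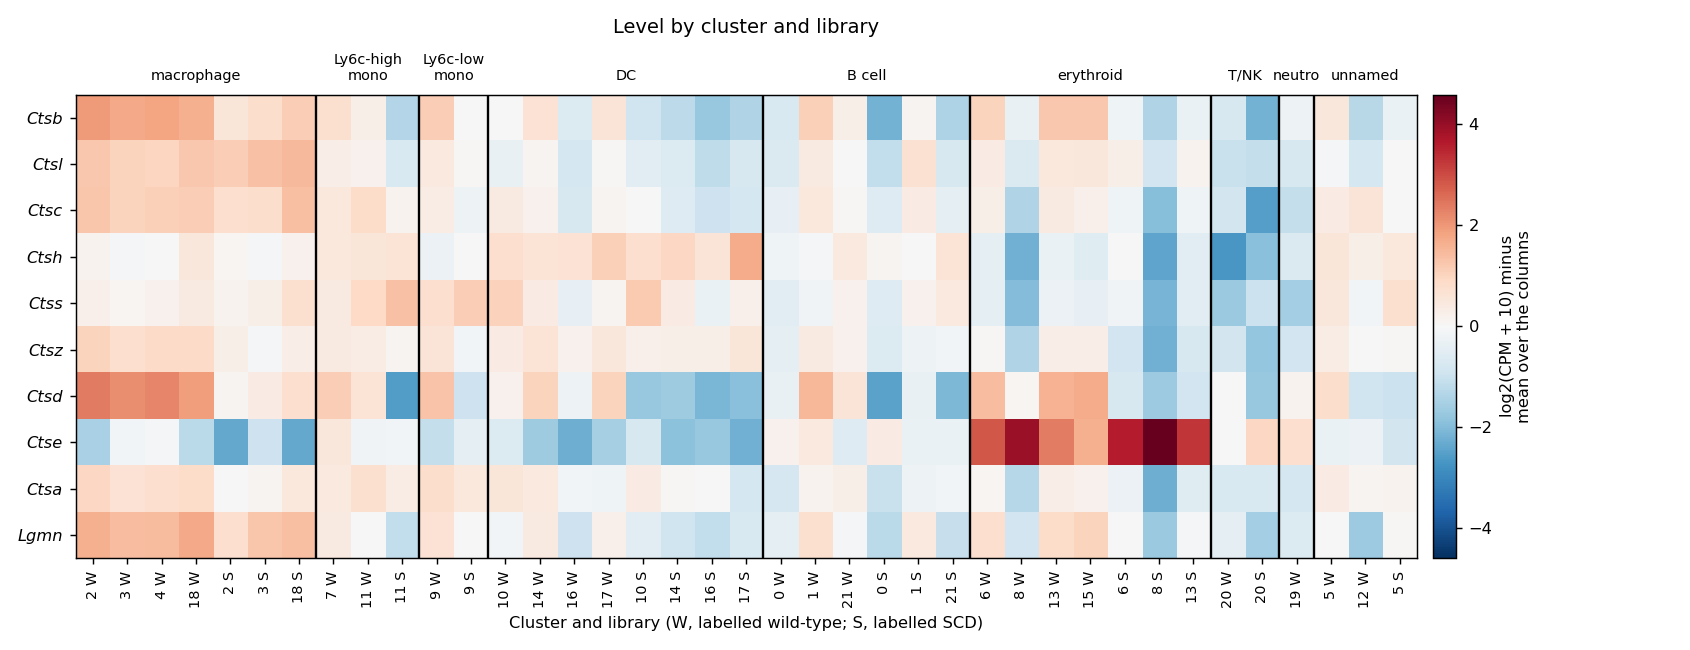
Columns are clusters of at least 50 cells in 1 library, grouped by class (W, labelled wild-type; S, labelled SCD), and colours give log2(CPM + 10) minus the gene's mean over the columns. Ctse is highest in the erythroid-like columns of both libraries, and Ctsd is higher in the W than in the S column of each cluster shown for both.

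**Figure D5:**
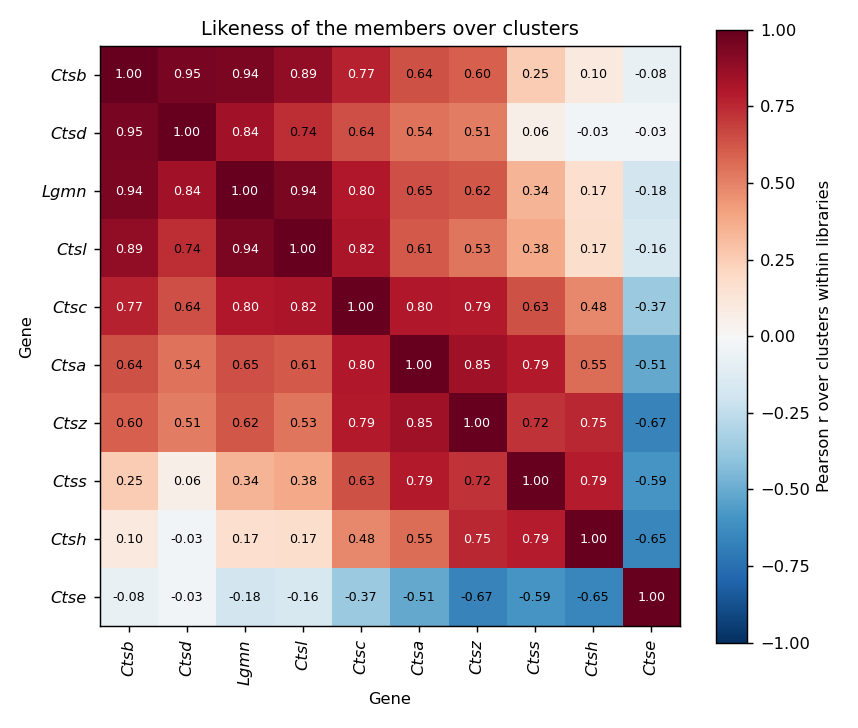
Each cell gives the Pearson correlation of log2(CPM + 10) between a pair of genes over 39 clusters within libraries, from -1 (blue) to 1 (red). Ctsb, Ctsd, Lgmn and Ctsl form a block of high values. Ctsz, Ctss and Ctsh lie between 0.72 and 0.79 with each other, but Ctsz is closest to Ctsa (0.85). Ctse is negative to all, from -0.03 with Ctsd to -0.67 with Ctsz.

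Among 9931 genes with at least 1000 UMIs, the most alike to Ctsb over these points were Hmox1, the enzyme that breaks down heme (0.987), and Clec4n (0.985). For Ctsd they were Wwp1 (0.988) and Cd5l, a protein secreted by macrophages (0.985), and for Lgmn Sdc3 (0.988) and Axl, a receptor for dying cells (0.980). Ctsl was most like Zfp703 (0.984) and Pla2g15, a lysosomal phospholipase (0.973). Hmox1, Wwp1, Sdc3 and Zfp703 were thus each the gene most like a member that was highest in macrophage-like cells. Ctsa was most like Plxnb2 (0.938) and Slc36a4 (0.923), and Ctsc like Vps26a, a part of the retromer that recycles sorting receptors (0.917), and Mitf (0.914). Ctss was most like Fam174a (0.944) and the kinase Lyn (0.933), Ctsz like Hmox2 (0.919) and Slc6a6 (0.916), and Ctsh like Sdccag8 (0.908) and Rassf4 (0.894). The genes most like Ctse were Klhl12 (0.962) and Zfpm1, the partner of the erythroid factor Gata1 (0.915).

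The remaining cathepsins of the mouse were low. Of Ctsf, Ctsg, Ctsk, Ctso and Ctsw, 4 had at least 100 UMIs in all kept cells and 2, Ctsf and Ctso, had as many in macrophage-like cells, where neither was past 2-fold. Ctsf was highest in erythroid-like cells, at 53.4 and 41.1 CPM, close to its 42.6 and 30.2 CPM in macrophage-like cells. Ctso was highest in B cell-like cells, with 94.0 and 119 CPM. Ctsg and Ctsk were at no more than 1.65 CPM in any of the 5 classes.

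The listed inhibitors can hold cathepsins in check. Of 12 listed, 7 had at least 100 UMIs, 5 of them in macrophage-like cells, where 1 was past 2-fold higher in the SCD-labelled library, none lower, and the median log2 ratio was 0.0024. That gene was Serpina3g, a serpin of activated leukocytes, at 19.9 and 149.7 CPM, which on the log2 scale is a ratio of 2.91 (95% interval 2.78 to 3.05). Cst3, the secreted cystatin C, was level at 663 and 664 CPM in macrophage-like cells and highest in monocyte-like cells, at 1147 and 1975 CPM. The cytosolic inhibitors Cstb and Serpinb6a were highest in macrophage-like cells of both libraries, with log2 ratios of -0.73 (95% interval -0.81 to -0.65) and -0.66 (95% interval -0.70 to -0.62). Serpinb1a was a gene of B cell-like cells, at 61.3 and 118 CPM there, against 2.65 and 2.89 CPM in macrophage-like cells. Cst7 and Ctla2a were at no more than 2.60 CPM in any of the 5 classes.

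Of the 7 genes that sort enzymes to the lysosome, 6 were within 2-fold in macrophage-like cells and 1, Igf2r, was past it. Igf2r, the larger mannose 6-phosphate receptor, was at 72.8 and 25.7 CPM, which on the log2 scale is a ratio of -1.50 (95% interval -1.69 to -1.32), while M6pr, the smaller receptor, was at 362 and 315 CPM, a ratio of -0.20 (95% interval -0.25 to -0.14). Psap, the precursor of the saposins, stood near Ctsb with a ratio of -0.71 (95% interval -0.72 to -0.70). Sort1, Gnptab, Gnptg and Nagpa, which sort or tag enzymes, lay between -0.17 and 0.30, and the median of the list was -0.17. The transcription factors Tfeb, Tfe3, Mitf, Tfec, Spi1 and Irf8 were all within 2-fold, from -0.48 (95% interval -0.56 to -0.40) for Spi1, the gene of PU.1, to 0.43 (95% interval 0.34 to 0.51) for Tfe3.

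The genes of MHC class II loading work beside Ctss and Ctsl. All 9 measured of 10 listed were past 2-fold higher in macrophage-like cells labelled SCD, beside 8.56% of all genes. Their median log2 ratio was 2.41, and Ifi30 was not analysed here. The list was written with earlier results of these data known. Cd74, the invariant chain that Ctss and Ctsl cut, was at 472 and 3205 CPM, which on the log2 scale is a ratio of 2.76 (95% interval 2.74 to 2.79), and was highest in DC-like cells, at 8050.3 and 11318 CPM. Ciita, the switch of class II genes, was at 9.98 and 75.2 CPM in macrophage-like cells. Ctss and Ctsl were also higher in those cells labelled SCD, but short of 2-fold. In cluster 2 alone Ctss and Ctsl were at -0.08 and -0.12, with intervals that include 0. In cluster 3 they were at 0.18 (95% interval 0.12 to 0.25) and 0.32 (95% interval 0.13 to 0.51). In cluster 18 Ctss was at 0.31 (95% interval 0.08 to 0.55) and Ctsl at 0.24, the latter with an interval that includes 0. Beside this, 11 DC markers outside class II summed to 48.4 and 93.2 CPM in macrophage-like cells and to 1009 and 1343 CPM in DC-like cells, with none of them at 0 in macrophage-like cells. Most cells with these values came from cluster 18 in the SCD-labelled library and from cluster 2 in the other, and the part of free RNA, doublets and cluster makeup was not tested.

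Genes that overlap members in the annotation limit some values. Ctsa lies opposite Neurl2 and Pltp, Ctsb opposite Fdft1 and Ctsz opposite Nelfcd, and the strand setting of the counting was not given in the sources used here. Gm49369 overlaps Ctsd on the same strand and had 0 UMIs.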

How the data were processed

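Spleen cells of 1 control (labelled wild-type) and 1 SCD mouse were profiled with droplet single-cell RNA-seq. The authors deposited UMI counts per gene and barcode, made with Cell Ranger. The processing notes name version 4.0.0 and genome build GRCm38.p6, and the matrix headers name software version 3.1.0. These counts were not normalized.

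Kept cells had 500 to 5000 detected genes, less than 15% of UMIs from mitochondrial genes and less than 30% from ribosomal-protein genes. Genes had to be seen in at least 20 cells. Counts were scaled with scran 1.30.0 (R 4.3.3) for clustering only, with 2000 variable genes without the members, 30 principal components, 15 neighbours and Leiden resolution 1 (Scanpy 1.11.5, igraph 0.11.9, Python 3.11.15). Clusters were named macrophage-like where the median macrophage marker, and at least 3 markers found in 10% of cells, reached 4 times the main B cell-like cluster. Those whose erythroid markers likewise reached 2 times that cluster were said to carry erythroid transcripts. These limits were set after seeing the data. The other clusters took the class with the most markers in 10% of cells and at 2 times the rest, with at least 3 required. Clusters 5 and 12 were left unnamed. A further erythroid marker used in naming is not reported here. Scrublet marked 1712 cells labelled SCD (13.9%) and 0 labelled wild-type, where the highest-scoring 10%, with ties 2046 cells, were taken instead. Marked cells were left in, and the macrophage comparisons were recomputed without them.

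UMIs were summed per class and library and divided by the class total (CPM). Intervals are 95% exact intervals from the counts and cover counting error only. Comparisons between libraries used genes with at least 100 UMIs in the class over both libraries. With 1 mouse in each group no p-value was computed. Scripts were tested on simulated data. The members, related lists and markers were chosen with earlier results of these data known. Genes named were the members, the related genes with at least 100 UMIs, and the 2 genes most like each member. The alternatives changed the cell filter, depth, doublets, normalization, resolution, clustering genes, joint clustering, library total, weight of cells and macrophage clusters, and 2 more were added after seeing the data.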

Additional observations from a re-analysis of the deposited data

How the results depend on the processing

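The comparisons were recomputed under 13 alternatives, 2 of them added after seeing the data. The median log2 ratio of the 10 members in macrophage-like cells, -0.35 as reported, was below 0 in each. It was -0.25 with cells of at least 200 genes, -0.27 with cells of at least 1000 UMIs, -0.25 without cells marked as doublets, -0.29 at Leiden resolution 0.5, -0.49 with the members and all genes eligible for clustering, -0.25 with each library clustered on its own and -0.47 with each cell weighted equally. The number of members past 2-fold, 2 as reported, was 1 without marked doublets and 3 with all genes eligible for clustering, where Ctsb reached -1.08. The count of members at 2 times or more the main B cell-like cluster was 6 in each, and the count highest in macrophage-like cells ran from 5 to 7. Of 30 single values, 3 changed sign and 4 crossed 2-fold under some alternative. The log2 ratio of Ctse in macrophage-like cells to the main B cell-like cluster in the wild-type-labelled library, -1.03 as reported, was 0.66 with cells of at least 1000 UMIs, 0.62 without marked doublets, 0.14 at Leiden resolution 2 and 0.18 with each library clustered on its own. The Ctsc ratio between the libraries, near 0, was -0.18 with all genes eligible. The cause was not tested. The Ctsd ratio stayed between -1.93 and -1.53. No paired analysis was possible because each group held 1 library. Depth limits Ctse most, whose intervals include 0 in macrophage clusters 2 and 18 singly but not in both together or in cluster 3.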
